A study of Drosophila melanogaster with 2 samples.

Results

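The 7 genes ey, toy, eya, so, dac, vg and Dll, which select eye or appendage identity in the fly, were examined for accessible chromatin in Drosophila melanogaster S2 cells. S2 is a line derived from embryos with features of hemocytes, the blood cells of the fly, while the 7 genes are known for their roles in the eye, wing, leg and antenna. Accessibility was measured by ATAC-seq, where a transposase (Tn5) cuts open DNA and tags it for sequencing. The series held 1 group of 2 libraries, each from 2000000 S2 cells grown at 25 °C in Schneider's medium with 10% serum and amplified for 12 PCR cycles, and the labels name no treatment and no altered genotype. It came with 1 list of peaks for both libraries, so no value had a replicate error and no comparison between groups of samples was possible. The study's subject was how PRC2, the enzyme complex that places the Polycomb mark on histone H3, is inhibited.

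A site was counted for a gene when its summit lay in the gene's RefSeq span or within 5 kb to either side, on the dm6 assembly. All 7 genes were matched, and 63 of the 35535 summits in the list met this rule. Each gene had at least 1 such summit, as did 88.0% of all protein-coding genes. Their strength is given as the pileup, which is the number of overlapping fragments at the summit as the peak caller counted them. It was recovered as a whole number from the authors' deposited fold and p-value. The caller's settings are not given, so the unit counted may be reads or cut ends, and "fragments" below stands for that unit. A pileup carries an exact Poisson 95% interval that covers counting error only and takes the counted units as independent. The fold, a value the authors deposited for each line, sets the pileup against the caller's local background. In a bulk library, fewer cells with an open site and a less open site in each cell cannot be told apart.

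The eye genes form the retinal determination network. The Pax6 proteins Twin of eyeless and Eyeless, encoded by toy and ey, stand at its top, and Eyeless turns on so and eya. Sine oculis, a Six-family homeodomain protein, binds DNA together with Eyes absent, a coactivator with a phosphatase domain, and dac encodes a nuclear cofactor of the Ski and Sno family that acts with them. In the appendages, Vestigial pairs with the DNA-binding protein Scalloped to specify wing, and the homeodomain protein Distal-less specifies the distal parts of legs and antennae. Several of these genes are known targets of Polycomb silencing outside their own tissues, and dac, eya and vg each contain studied Polycomb response elements.

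The label S2 was checked against markers. A peak overlapping the 250 bp to either side of an annotated end was found for 9 of 10 hemocyte markers, against 1 of 6 photoreceptor markers and 60.4% of all 13935 protein-coding genes. Among 5 markers of disc epithelium, the tissue in which the selector genes normally act, 4 had such a peak. Their highest pileups at an end were 429 at wg, the Wnt ligand, 62 at Ubx, 54 at nub and 27 at dpp. For the 9 hemocyte markers these pileups ran from 33 at NimC1 to 682 at zfh1. Neuron and muscle markers had such a peak in 3 of 5 and 2 of 5. The highest pileup in the gene and 5 kb flanks had a median of 222.5 for hemocyte and 429 for disc epithelium markers. It was 270 for neuron, 106.5 for photoreceptor and 42 for muscle markers. By this height the hemocyte markers did not stand above the disc markers.

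Each of the 7 selector genes had an accessible site at 1 of its own ends or at both. By the same rule this held for 7 of 7, against 60.4% of protein-coding genes in all and 73.2% of the 477 other genes whose spans fell in the same range, 15.2 to 23.5 kb. The RefSeq table gives no strand, so the ends are called left and right on the chromosome and are not sorted into promoters and 3′ ends. The peak was at the left end in 6 of the 7 genes and at the right end in dac. Only eya had peaks at both ends (1 of 7, against 11.7% of all protein-coding genes and 15.1% of the others of similar span). The summit of its left peak was nearer to the end of a neighbour, CG31637, than to eya. Only at vg and the left end of eya did the peak's summit lie more than 250 bp from the end itself, at 306 and 312 bp.

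**Figure D1:**
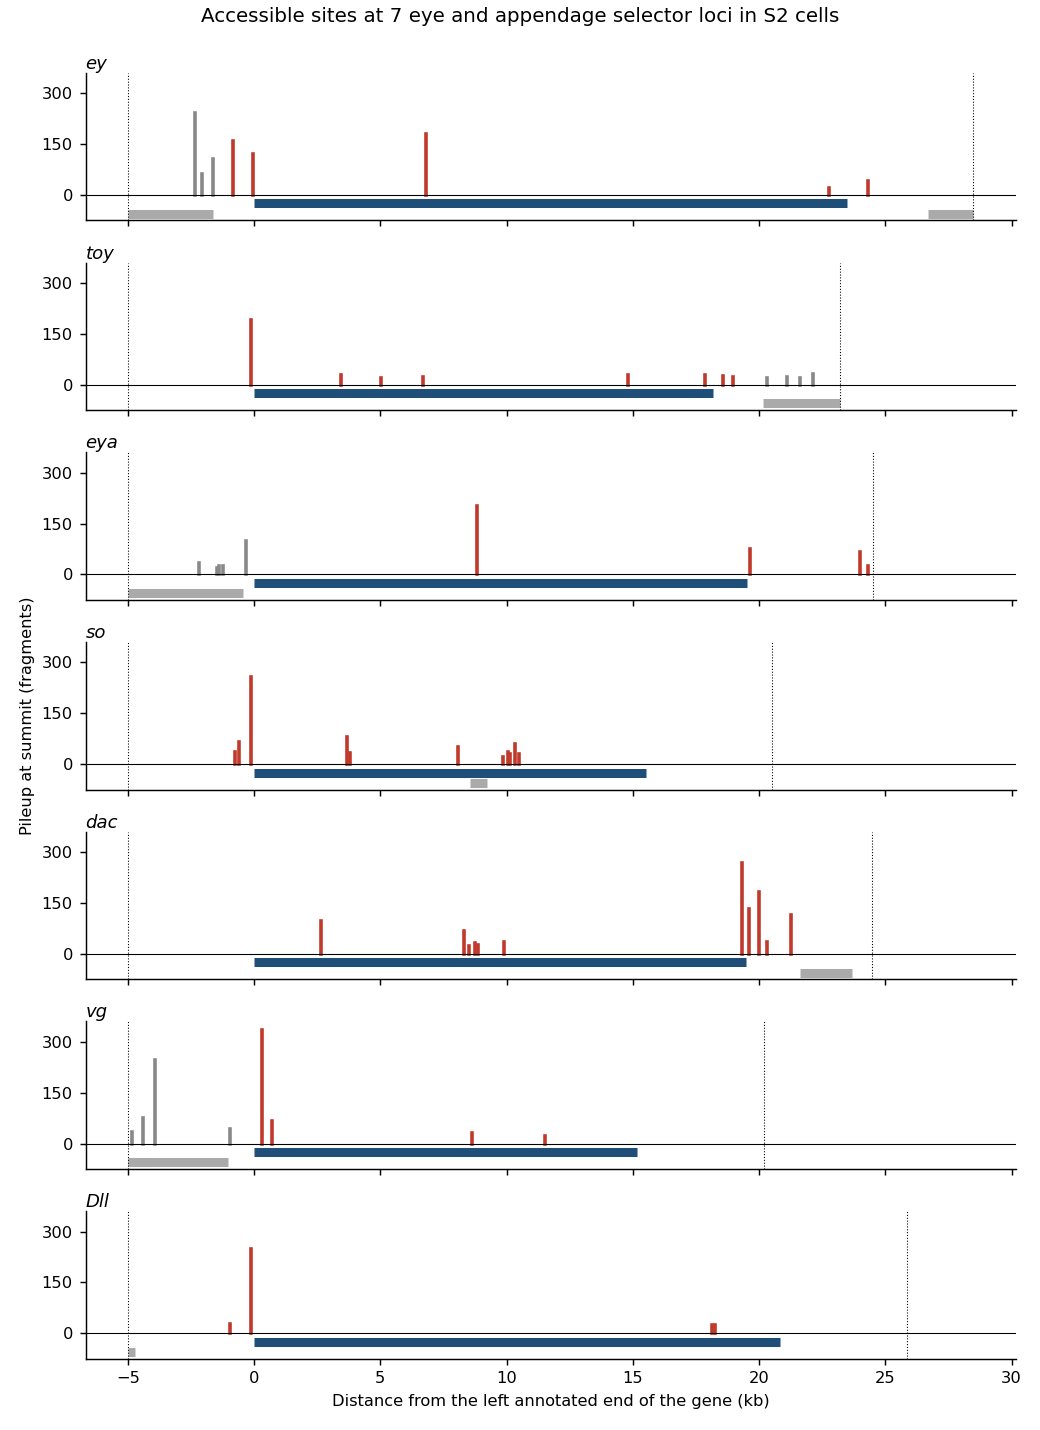
Summits along the 7 loci, as distance from the left annotated end of the gene in kb (horizontal) and pileup in fragments (vertical, linear from 0). Blue bars are the selector gene, grey bars other protein-coding genes, dotted lines the 5 kb limits; red stems are summits away from other protein-coding genes and grey stems the 16 summits inside one or within 250 bp of its ends. The tallest stem belongs to a peak at the gene's own end in toy, so, dac, vg and Dll, stands inside the gene in eya and in the neighbouring gene at ey.

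Most of the sites were weak, and each locus held from 1 to 5 summits with a pileup over 100. The 63 summits lay in 51 intervals over 202 kb, or 0.311 per kb, against 0.259 over the whole list and 0.279 on chromosome 4. The latter rates are not limited to windows around genes. Per gene with its 5 kb flanks, the median was 0.318 per kb for the 7 genes. It was 0.340 for the 477 others of similar span and 0.365 for all other protein-coding genes. Pileups of the 63 summits had a median of 35, quartiles of 26 and 98 and a range of 20 to 335. In the whole list the median was 56 (33 and 109). The median fold was 3.12 against 3.61. A fold of at least 10 was reached by 11 of the 63 summits (17.5%, 95% exact interval 9.05 to 29.1%), against 9.92% of the list, a share inside that interval. A pileup over 100 was reached by 15 (23.8%), against 27.7% of the list, and a −log10 q of at least 10 by 28 (44.4%), against 57.3%. Each of the 7 loci held at least 1 summit with a fold of at least 10, as did 43.7% of all protein-coding genes and 66.5% of the others of similar span. None of these differences was tested, because summits of 1 list are not replicates.

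The Pax6 genes lie on chromosome 4 and differed in layout. The locus of ey (4, 697689 to 721173) had 8 summits, of which 5 stood to the left of the gene within 2.33 kb. Their pileups, from the outermost inward, were 241, 61, 106, 158 and 120. The 3 outermost of these belong as much to the neighbour myo, which encodes the TGF-β family ligand Myoglianin: those at 241 and 61 lay inside it and that at 106 lay at its right end. The summit of 158, at position 696869, stood about midway between the right end of myo, at 696055, and ey. The innermost of the 5, at position 697646, was 43 bp from the left end of ey and had a pileup of 120 (95% interval 99.5 to 143) and a fold of 8.39.

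Inside ey stood a lone strong site at position 704506, 6.82 kb from the left end. Its pileup was 181 (156 to 209) and its fold 16.7, the highest fold of the locus. It exceeded the peak at the gene's own end by 1.51 times (exact 95% interval 1.19 to 1.92, counting error only). To its right no summit was called for 15.9 kb, which is 67.9% of the gene. The 2 remaining sites were small, with pileups of 20 inside and 42 at 827 bp past the right end.

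The paralog toy (4, 989725 to 1007922) had more summits, 12, and only 1 of them was strong. It stood at position 989597, 128 bp outside the left end, with a pileup of 192 (166 to 221) and a fold of 14.9. The other 11 had pileups from 20 to 33, against a lower quartile of 33 and a lowest value of 20 in the list. Of these 5 were inside the gene and 6 lay to its right, 4 of these in PlexA, the plexin receptor gene next to it. The highest of them inside toy reached 30, or 0.156 times the end peak (0.103 to 0.230). The 5 inside sites of toy, at 21 to 30, were thus all below the 181 inside ey.

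The partner genes eya and so also differed from each other. At eya (2L, 6527447 to 6546976) the 9 summits included 1 inside the gene, and that was the strongest. It stood at position 6536281, 8.83 kb from the left end, with a pileup of 202 (175 to 232) and a fold of 18.6. The peaks at the left and right ends had pileups of 98 (79.6 to 119) and 76 (59.9 to 95.1), so the inside site was 2.06 times the higher of them (1.61 to 2.65). The left peak, at position 6527135, also lay within 250 bp of the neighbour CG31637. It was nearer to the right end of that gene, at 6526996, than to eya. The 4 sites farther left, with pileups of 20 to 34, were inside CG31637. To the right of the gene were a site of 67 at 4.49 kb and one of 25 at 4.78 kb, the latter next to a long noncoding RNA gene. Whether the inside sites of ey and eya lie at starts of shorter transcripts was not tested, because the gene table holds no transcripts.

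The so locus (2R, 7419350 to 7434872) had 11 summits and was led by its left end. That peak, at position 7419243, had a pileup of 256 (226 to 289) and a fold of 20.4. It was preceded by smaller summits of 64 and 35, at 614 and 743 bp outside the gene. Inside so lay 8 summits, more than in any of the other 6 genes, in 3 places. The first place, 3.68 and 3.79 kb from the left end, had pileups of 81 and 34 and lay beside the end of a noncoding RNA gene. The second was a summit of 50 at 8.08 kb. The third was a run of 5 summits between 9.85 and 10.5 kb, with pileups of 22, 37, 29, 59 and 29, the last 4 in 1 interval of 504 bp that overlaps another noncoding RNA gene. The tallest inside site was 0.316 times the end peak (0.243 to 0.408), and the rightmost 5.02 kb of the gene had no summit.

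The dac gene (2L, 16466512 to 16485998) had the widest site of the 7 loci. Its right end lay in an interval of 943 bp, from 16485649 to 16486591, with 3 summits whose pileups were 268, 133 and 182. Intervals of at least 900 bp made up 0.159% of those in the list. The strongest of the 3, at position 16485836 and 162 bp inside the gene, had a 95% interval of 237 to 302 and a fold of 15.5. Farther right, before the neprilysin-like gene Nepl8, came summits of 35 and 116. The local background along this stretch was 16.4 to 19.7 fragments, and it was at the genome-wide value of 9.91 at all 6 summits deeper in the gene, so the folds at the right end are smaller for a given pileup than those inside.

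Inside dac the sites were of intermediate height. The first, 2.65 kb from the left end, had a pileup of 98 (79.6 to 119) and a fold of 9.07. A group of 4 summits between 8.31 and 8.86 kb had pileups of 66, 23, 32 and 27, followed by 34 at 9.89 kb. From there 9.43 kb had no summit, up to the peak at the right end. Neither the left end of the gene nor the 5 kb beyond it held a summit.

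The wing gene vg (2R, 12884201 to 12899385) carried the highest pileup of the 63 summits. It stood at position 12884507, 306 bp inside the left end, at 335 (300 to 373) with a fold of 21.7, also the highest of the 63. A smaller summit of 67 followed 731 bp inside the end. The rest of the gene had 2 summits, of 31 and 21 at 8.62 and 11.5 kb, with 7.89 kb free of summits before them. The 4 summits to the left of vg lie in other genes or at their ends. The strongest of them, 246 (216 to 279), was at the right end of Nmda1 and inside AspRS, which encodes the aspartyl-tRNA synthetase, and the 3 others had pileups of 33, 76 and 44. The local background was 13.0 to 16.8 at the 6 leftmost summits and at the genome-wide 9.91 at the 2 deep in the gene.

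The leg gene Dll (2R, 24814822 to 24835667) had the fewest sites, 4. The peak at its left end, with its summit at position 24814713, had a pileup of 249 (219 to 282) and a fold of 19.3. The other 3 had pileups of 28, at 948 bp outside that end, and 25 and 24 in 1 interval 18.1 and 18.2 kb inside it. The end peak thus held 76.4% of the summed pileup of the locus, against 25.9 to 40.7% for the strongest summit of the other 6. Between the left end and the inside interval 18.1 kb, or 86.9% of the gene, had no summit.

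Stretches without a summit ran through each gene, as through most genes of this size. Taking each gap between neighbouring summits that touches the gene, at its full length on the chromosome, the largest was 8.13 kb at toy, 8.73 at vg, 10.5 at dac, 10.8 at eya, 10.8 at so, 15.9 at ey and 18.2 at Dll. It was at least 5 kb in 7 of 7 genes, against 93.5% of the 477 others of similar span, and at least 15 kb in 2 of 7, ey and Dll, against 44.7%. The median over the others was 13.9 kb, so 5 of the 7 genes lay below it. A stretch without a called summit can still hold sites too weak for the caller, since the lowest pileup in the list was 20.

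With the 5 kb flanks included, the highest sites of the 7 genes lay within a factor of 1.74. In order the pileups were 335 at vg, 268 at dac, 256 at so, 249 at Dll, 241 at ey, 202 at eya and 192 at toy. The first step was larger than counting error, at 1.25 times (exact 95% interval 1.06 to 1.47), and the intervals of the 5 steps below it all held 1. From the top to the bottom the ratio was 1.74 (1.46 to 2.09). The order below vg depends on which site is taken: the 241 of ey is inside myo, and without sites of other genes ey came last with 181. In that order the step from Dll to eya was also larger than counting error, at 1.23 times (1.02 to 1.49). By fold the order was vg, so, Dll, eya, ey, dac and toy. The narrow range rests on the flanks, because the end peaks of toy, so and Dll have their summits 107 to 128 bp outside the annotated gene. Within the spans alone the highest pileups were 335 at vg, 268 at dac, 202 at eya, 181 at ey, 81 at so, 30 at toy and 25 at Dll.

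**Figure D2:**
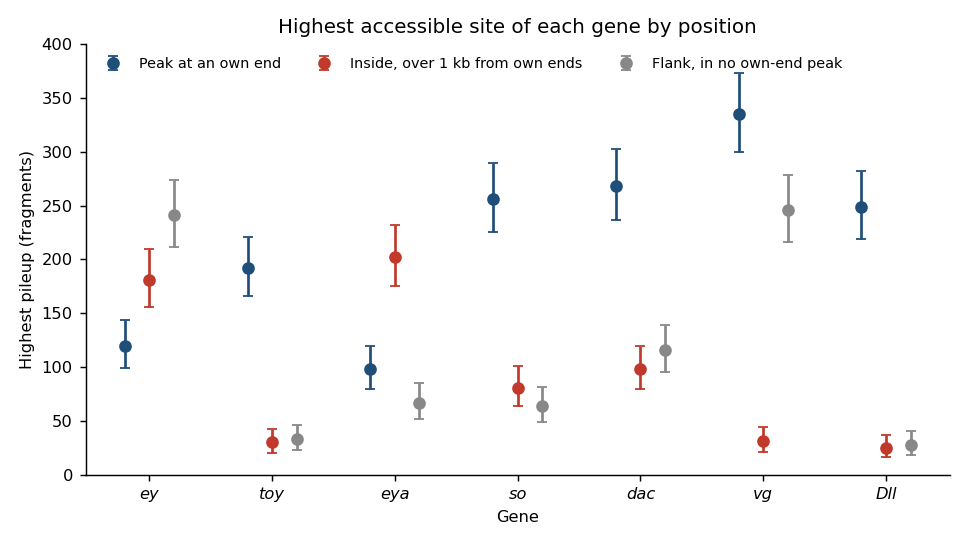
Highest pileup of each gene, in fragments on a linear axis from 0, at a peak overlapping 250 bp to either side of an own end (blue), inside the gene over 1 kb from its ends (red) and in the 5 kb flanks outside those peaks (grey). Points are single summits of the 1 peak list and bars are exact Poisson 95% intervals. In ey and eya the red point is above the blue one, and in the other 5 genes it is below.

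The height of the inside sites divided the genes more than the height of the end peaks did. The highest summit over 1 kb inside was 202 in eya and 181 in ey, then 98 in dac, 81 in so, 31 in vg, 30 in toy and 25 in Dll. It exceeded the peak at the gene's own end in 2 of the 7 genes (28.6%), against 43.3% of the 349 other genes of similar span with a peak at an end. In vg and Dll it was 0.0925 and 0.100 times the end peak (intervals 0.0619 to 0.134 and 0.0637 to 0.152).

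Set against genes of similar span, the selector genes were ordinary in the number of sites. The 477 others had a median of 10 summits in the gene and its flanks (quartiles 5 and 16), and the 7 had a median of 9 (range 4 to 12). Dll was lowest, at percentile 18.1 of those genes, and toy highest, at percentile 58.1. By the highest pileup the 7 ran from percentile 54.2 (toy) to 81.7 (vg), with medians of 249 for the 7 and 180 for the others. A summit inside the gene was found in 7 of 7 against 83.9% of the others.

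**Figure D3:**
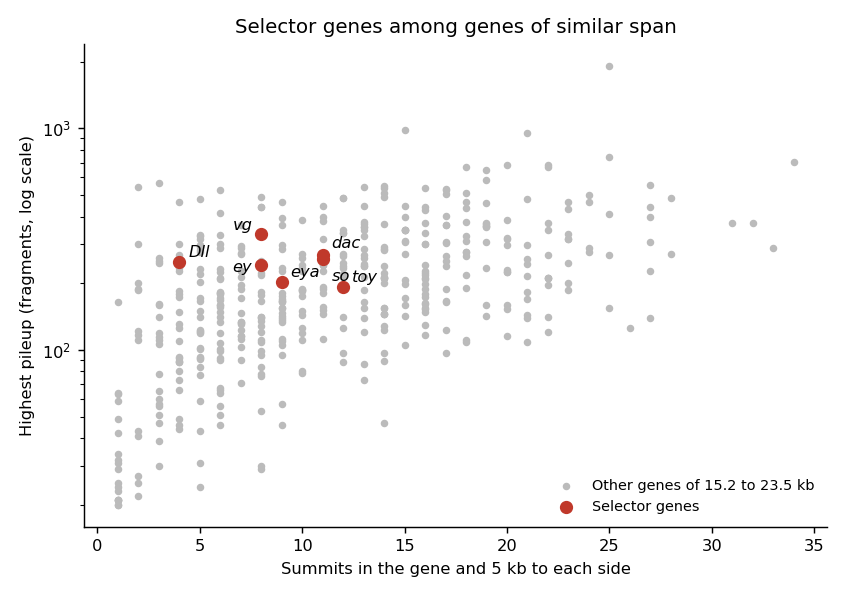
Number of summits in a gene and 5 kb to each side (horizontal) and highest pileup in fragments (vertical, log scale) for the 7 selector genes (red) and the other protein-coding genes of similar span with at least 1 summit (grey), 454 of 477. The red points lie within the grey cloud, with Dll at few summits for its height.

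By position in the annotation, with a window of 250 bp, the shares of the 63 summits were near those of the list. The 63 were taken by their position in or within 5 kb of a gene, and the list was not. The shares by position thus follow in part from that rule, and their likeness or difference is not a trait of the loci. Within 250 bp of an end of any gene lay 19 (30.2%, 95% exact interval 19.2 to 43.0%), against 29.0% of the list. Farther inside a gene lay 33 (52.4%, against 56.6%) and between genes 11 (17.5%, against 14.4%). With other windows the shares at gene ends were farther apart, at 68.3% against 50.8% for 1000 bp and 14.3% against 19.8% for 100 bp. In background, 36 of the 63 (57.1%, 44.0 to 69.5%) had the caller's genome-wide background of 9.91 fragments, the lowest possible, against 30.9% of the list. All 9 summits of eya and 10 of 12 at toy were at this value. Neighbouring summits thus share it, and the interval, which takes summits as independent, is too narrow. The background is computed from reads around the summit, so a low value goes with few reads nearby.

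The factors that work with the selector genes varied widely among themselves. Of 40 partner genes in 3 lists 29 had a peak at an own end (72.5%), against 60.4% of all protein-coding genes and 73.2% of those of the selector genes' span. The spans of the partners ran from 1.83 kb (danr) to 132 kb (hth), so the 73.2% is not matched to them in span. Their highest pileups ran from 0 to 1912, and the 7 selector genes ran from 192 to 335. The 1912 belongs to ap, which is also 1 of the 477 genes of similar span. On the eye list 6 of 13 had an end peak, with a median highest pileup of 131. It was led by tsh, a zinc-finger gene, at 503, the Six-family gene Optix at 375 and the TALE homeobox gene hth at 349. Their highest folds were 17.4, 28.7 and 30.9. The hth gene had 32 summits over its 132 kb and its flanks, and no peak at an end. Also without an end peak were dan, which had 2 sites of up to 53, danr, which had no summit at all, and gl, a photoreceptor regulator, with up to 110.

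On the wing list 8 of 10 had an end peak and the median highest pileup was 405, above that of the selector genes. The LIM-homeobox gene ap led with 1912 at an end, followed by the POU genes pdm2 with 596 and nub with 463. By the highest fold in gene plus flanks their values were 22.7, 31.1 and 21.3, against 14.9 to 21.7 for the selector genes. Without an end peak were pdm2 and sd, the latter encoding the Vestigial partner Scalloped. The sd gene had 14 summits, 12 of them inside, with a highest pileup of 281. On the leg and antenna list 15 of 17 had an end peak and the median was 180. The paralogs bab2 and bab1 reached 692 and 683, with highest folds of 24.5 and 12.1, the latter below each selector gene. The LIM-homeobox gene Lim1 reached 362, with a highest fold of 23.4. In contrast, B-H2 and dysf had no end peak and pileups of at most 29 and 56.

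**Figure D4:**
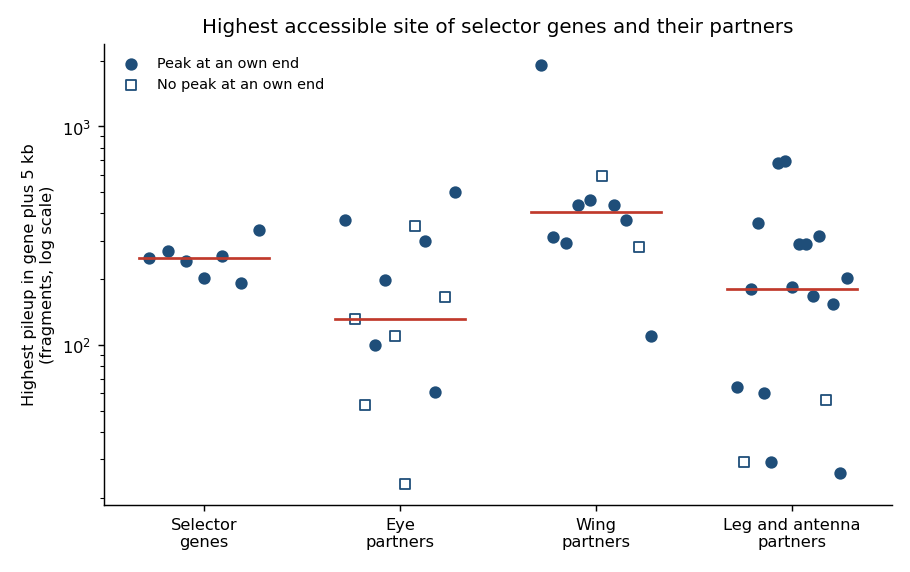
Highest pileup in the gene and 5 kb to each side, in fragments on a log scale, for the 7 selector genes and 3 lists of partner genes. Each symbol is a gene, filled with a peak at an own end and open without, and red lines are list medians; danr, with no summit, is not drawn but counts in its median. The selector genes span 192 to 335 and the partners extend to both sides of that range.

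Other regulator loci of the embryo gave mixed values on the same measures. The Iroquois genes ara, caup and mirr had an end peak in 3 of 3. Of these, mirr had 13 summits, or 0.489 per kb, above each selector gene. The genes ara and caup had 2 summits each, or 0.0789 and 0.0902 per kb, below each selector gene. Of en and inv, 1 of 2 had an end peak. Of the 7 gap genes 3 did, with a median of 1 summit, against 60.4% of all protein-coding genes. Many of the gap genes are short. Per kb of the gene with its flanks their median was 0.0860, against 0.318 for the selector genes and 0.365 for the other protein-coding genes. The highest sites of caup, inv and knrl, with pileups of 412, 407 and 468, exceeded each of the 7 selector genes in pileup. By highest fold caup and inv, at 30.5 and 30.4, did so too, while knrl, at 20.9, was below vg at 21.7. The differences between the sets were not tested.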

How the data were processed

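The submitters' processing notes list Bowtie2, MACS2, deepTools and the build dm6, with no versions or settings. Whether the libraries were pooled before calling, and how reads were shifted or filtered, is not given in the sources used here; such steps can move a summit or change its height. The fold, a ratio of pileup to local background, and the −log10 p and −log10 q were used as deposited by the authors. The number of sample columns left out was 0.

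Pileup and background were solved from the fold (pseudocount 1) and −log10 p under a Poisson tail. This was met within 0.001 for 35535 of 35535 summits. On data simulated with the same formulas 2000 of 2000 pileups were recovered, which checks the arithmetic only. Library depth is unknown. Positions count from 1 and gene spans are from the RefSeq table of Release 6. Shares carry exact binomial intervals, which take summits as independent although neighbouring summits can share an interval or a background. Ratios of pileups carry exact conditional intervals, and no p-values were computed. Calculations used Python 3.11.15, pandas 2.3.3 and scipy 1.17.1.

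Members and lists were chosen with earlier results of these data known; the genes of similar span and the distances between summits were chosen after the data were seen. Named were all members, the 3 partners of each list with the highest pileup, up to 3 by alphabet without an end peak, genes within 250 bp of a member's 5 highest summits, and each member's most similar gene; PlexA, Nepl8 and the comparison loci's highest genes were named after their values were seen. Alternatives were other flanks, windows and peak thresholds and merged intervals. The labels do not state if the 2 libraries are from different cultures.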

Additional observations from a re-analysis of the deposited data

How the results depend on the processing

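No paired analysis was possible because the series has 1 group and 1 peak list without values per library, and for the same reason neither library could be left out. With no flank the loci held 29 summits in place of 63. At a −log10 q of at least 10, and at a fold at or above the list's median, they held 28 each, or 0.138 per kb in both cases. With the former threshold the median pileup was 111 and the median fold 8.05. The share near a gene end was 14.3% with a window of 100 bp, 44.4% with 500 bp and 68.3% with 1000 bp (19.8, 39.8 and 50.8% of the whole list). The whole list is not limited to windows around genes. In the order by highest pileup, 3 of 7 genes kept their place when ranked by fold, 2 within the gene spans alone and 4 without sites of other genes, the last chosen after seeing the data. The count of members with a peak at an own end was 7 under each alternative except a window of 100 bp, where it was 6. Partners with such a peak numbered 24 to 33. Depth limits the weak sites most: a pileup of 20 has an interval of 12.2 to 30.9.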

Other observations

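The 5 kb limit left out strong sites near some genes. Just inside it were summits 4.84 kb to the left of vg, with a pileup of 33, and 4.78 kb to the right of eya, with 25. Just outside were a summit 5.06 kb to the right of vg with a pileup of 284 and one 5.28 kb to the right of dac with 39. The summit to the right of vg, at position 12904440, had a fold of 20.9 and was the strongest between 5 and 50 kb of that gene, while the right flank of vg within the limit had 0 summits. To the right of ey the next summit beyond the limit was 66.5 kb away, past the whole of the muscle gene bt. Between 5 and 50 kb of a gene's ends the density of summits ran from 0.222 per kb around ey to 0.633 around dac.

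By span, summits per kb and highest pileup, the protein-coding genes nearest to the members were stai for ey, syd for toy, nAChRalpha7 for eya, Rab3GAP1 for so, nej for dac, Abca3 for vg and Tsp for Dll. The distances were 0.0936 to 0.170 in units of the standard deviation over all genes with a summit, in this 1 list. The nearest gene to dac, nej, which encodes the acetyltransferase CBP, had 12 summits and a highest pileup of 271.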
